A study of Homo sapiens with 36 samples.

Results

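The transcripts of the cytosolic ribosomal proteins were examined in eCLIP maps (crosslinking and immunoprecipitation with sequencing) of 9 RNA-associated proteins in HEK293T, an established line derived from human embryonic kidney. A gene was taken as a member if its name was RPL or RPS with a number, an optional P before it and an optional A, X, Y or L after it, and if its listed windows carried a protein-coding gene type. This gave 79 genes of the 9773 protein-coding genes that held a window under a single name, and 3502 of the 788098 listed windows. Because a window can be listed for several proteins, these were 1762 distinct windows. Windows of 1 gene share their source and are not independent of each other.

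Each protein had 2 IP libraries and 2 input libraries, 36 libraries in all, from cells that received no treatment. The groups were the IP and the input of CPSF5, CPSF6, EIF4B, GRB2, LGALS3, MBNL2, RBM10, RBM22 and RNPS1. The complexes were recovered with an antibody to the protein itself or to a V5 tag, and which of these served which protein is not stated. Whether the replicates came from different cultures is not in the labels, and their differences may be technical. CPSF5 and CPSF6 are subunits of a cleavage factor that binds upstream of poly(A) sites, and EIF4B assists the helicase that unwinds the 5' ends of mRNAs. RNPS1 is a splicing factor that joins the exon junction complex, RBM10 and RBM22 act in splicing, and MBNL2 is a muscleblind splicing regulator. GRB2 is known as an adaptor of receptor tyrosine kinases, and LGALS3 (galectin-3) as a lectin that binds galactosides. The cell identity could not be checked against marker genes in lists of bound windows and was not tested.

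Ribosomal proteins assemble with ribosomal RNA in the nucleolus into the small and the large subunit, and their mRNAs are among the most abundant of a growing cell. Most of these mRNAs begin with a C followed by a stretch of C and T, the 5' terminal oligopyrimidine (TOP) tract, through which mTOR signalling and the LARP1 protein control their translation. The genes are short, their introns often host small nucleolar RNAs, and they have many processed pseudogenes. Reads from near-identical copies can be assigned to the wrong locus, which makes every read count of a ribosomal protein gene uncertain to an unknown extent.

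The start regions of members are shown first, because the bulk of the EIF4B reads lay there. Of the 79 members, 63 had an entry in the RefSeq promoter table for GRCh38.p14, and 40 of these (63.5%) started with a C followed by 4 bases that were C or T, read on the gene's own strand from its annotated start. The same letters began 728 of 15811 protein-coding entries (4.60%). They began 5 of 69 genes of mitochondrial ribosomal proteins (7.25%), which carry out translation inside mitochondria, and 11 of 13 other mRNAs known for the tract (84.6%). Each sequence below runs 5' to 3' from 15 bases before the annotated start to 15 bases after it, and capitals mark the run of C and T where the start meets the definition. The first 4 are, paralogs aside, the matched members with the highest EIF4B enrichment in a 5' UTR window among those that meet the definition. RPS26 and RPS4X do not meet it and had high EIF4B values in a 5' UTR window centred close to the annotated start, and the last 4 are paralogs.
RPS3A, chr4:151099613-151099642, plus strand: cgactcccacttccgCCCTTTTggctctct
RPL12, chr9:127451392-127451421, minus strand: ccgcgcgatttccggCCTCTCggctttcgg
RPL24, chr3:101686704-101686733, minus strand: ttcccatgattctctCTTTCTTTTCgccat
RPL31, chr2:101002274-101002303, plus strand: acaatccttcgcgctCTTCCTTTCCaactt
RPS26, chr12:56041903-56041932, plus strand: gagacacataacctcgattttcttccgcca
RPS4X, chrX:72277234-72277263, minus strand: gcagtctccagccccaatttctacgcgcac
RPL22L1, chr3:170870181-170870210, minus strand: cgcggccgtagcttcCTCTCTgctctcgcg
RPL26L1, chr5:172958714-172958743, plus strand: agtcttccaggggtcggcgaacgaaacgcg
RPL7L1, chr6:42879601-42879630, plus strand: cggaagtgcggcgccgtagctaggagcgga
RPS27L, chr15:63157463-63157492, minus strand: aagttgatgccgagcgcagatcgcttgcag
A match describes letters at 1 annotated start. No match says only that these letters are not at that position.

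The authors' tables give, for each window of at most 100 nt, reads summed over the replicates and the log2 enrichment of IP over input for the lower and the higher of the replicates. These enrichments are the authors' own values and are used to describe and rank windows within a list. In what follows "log2 enrichment" is the value of the lower replicate unless the higher one is named. All windows had a highest q-value below 0.2, the largest being 0.1999. Depth per library is unknown, since reads outside listed windows are not in the tables. The listed windows of LGALS3 held the fewest reads, 187076 in IP and 65036 in input. The most IP reads were those of GRB2, 13313477, and the most input reads those of CPSF6, 1548461.

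Ribosomal protein genes were listed for most of the proteins. A member was listed for a median of 7 of the 9 proteins, against 5 for all protein-coding genes, and 45 members (57.0%) were listed for at least 7 proteins, against a background of 27.2%. By protein, 78 members had an EIF4B window (background 94.4%), 78 an RNPS1 window (90.4%) and 77 a CPSF6 window (86.9%). For these 3 proteins the lists held most of the 9773 genes, so that the members' counts stand near the background. RBM10 windows were listed in 69 members (background 47.7%), RBM22 windows in 46 (23.8%) and LGALS3 windows in 26 (3.27%). Of the members, 64 had an MBNL2 window (67.2%) and 63 a CPSF5 window (66.2%). GRB2 was the single list in which members were scarcer than genes in general, with 27 members against a background of 49.7%.

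**Figure D1:**
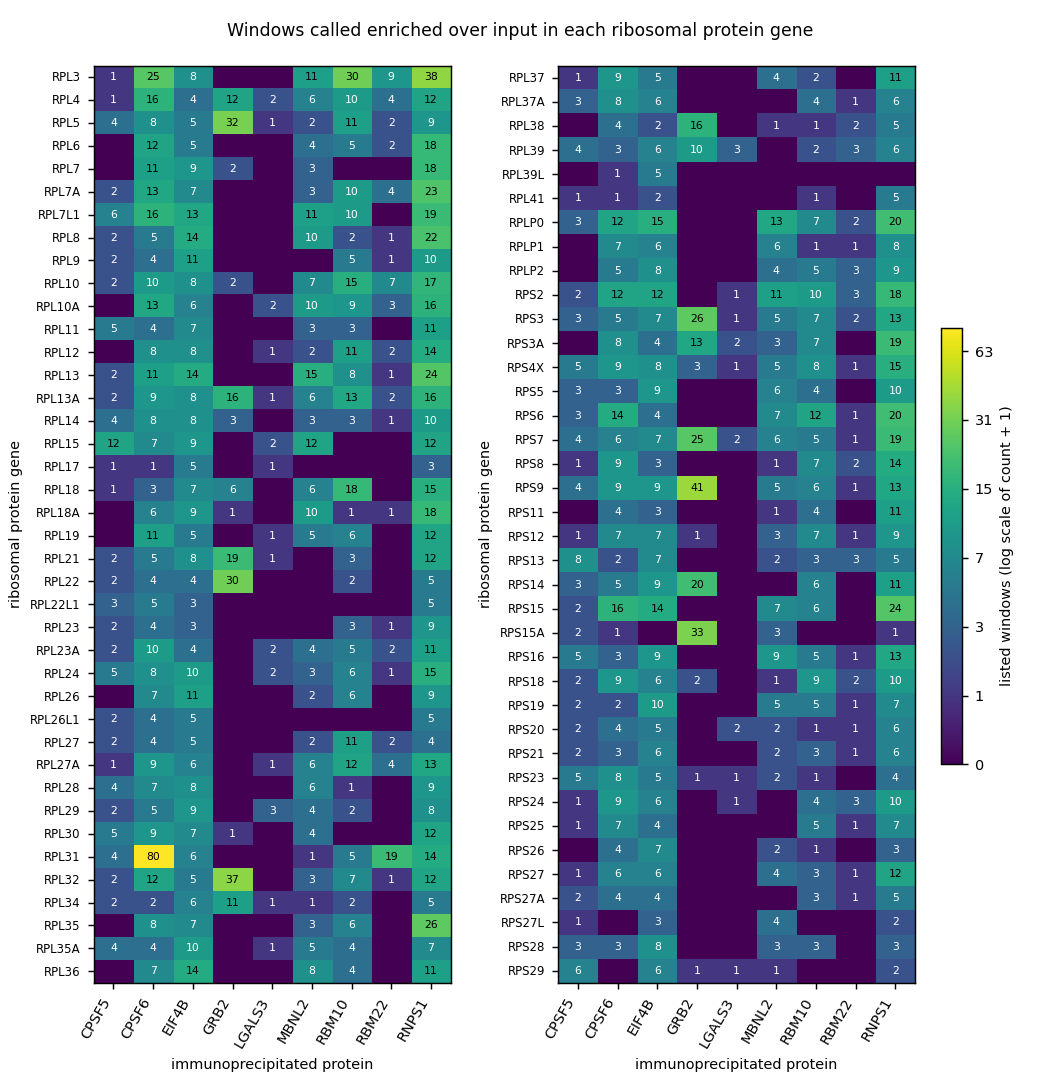
Number of listed windows in the ribosomal protein genes (rows, 1 member not drawn, large subunit genes first, then the stalk and the small subunit genes) for each immunoprecipitated protein (columns), with the colour on a log scale of the count plus 1 and empty cells at 0. RNPS1 and EIF4B columns are filled in all but 1 of the genes drawn, GRB2 windows sit in few genes with up to 41 windows each, and RPL31 holds 80 CPSF6 windows.

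The members with windows in all 9 lists included RPS7, RPL5, RPL13A, RPS3, RPL4 and RPS4X. RPS7, a small subunit protein needed for processing of 18S ribosomal RNA, had 75 windows over the 9 lists. RPL5, which carries 5S ribosomal RNA into the large subunit and can bind the ubiquitin ligase MDM2, had 74. RPL13A, a large subunit protein whose introns host small nucleolar RNAs, had 73, RPS3, which lines the mRNA entry channel, had 69, and RPL4, which reaches into the peptide exit tunnel, had 67. RPS4X, a small subunit protein, had 55. At the other end RPL39L, a paralog of RPL39 known from testis, was listed for EIF4B and CPSF6 only, with 6 windows. RPL22L1, RPL26L1 and RPS27L were listed for 4 proteins each. No member was listed for fewer than 2 proteins.

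The part of the transcript in which windows lay differed between members and other genes in most lists. Across the 9 lists 874 of the 3502 member windows (25.0%) lay in exons that the authors' annotation calls noncoding, against 2.03% of the windows of other protein-coding genes. These exons belong to 72 member genes, and 837 of the 874 windows (95.8%) were also annotated as intron of another transcript of the gene. The annotated type of a window in a member is therefore often 1 of several that apply. The class shares below use the authors' first type. Shares by any annotated type were computed for both members and other genes only for splice sites and introns, so other orders may depend on the type used. For CPSF6, proximal or deep intron held 12.3% of member windows and 26.4% of others by first type. An intron type in any transcript was carried by 65.0% and 40.2%. The order changed in the same way for RNPS1 (4.89% and 9.32%, then 65.6% and 24.6%) and EIF4B (2.90% and 12.6%, then 47.9% and 24.8%). Whether the many annotated transcripts of these genes account for the noncoding exon share was not tested.

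**Figure D2:**
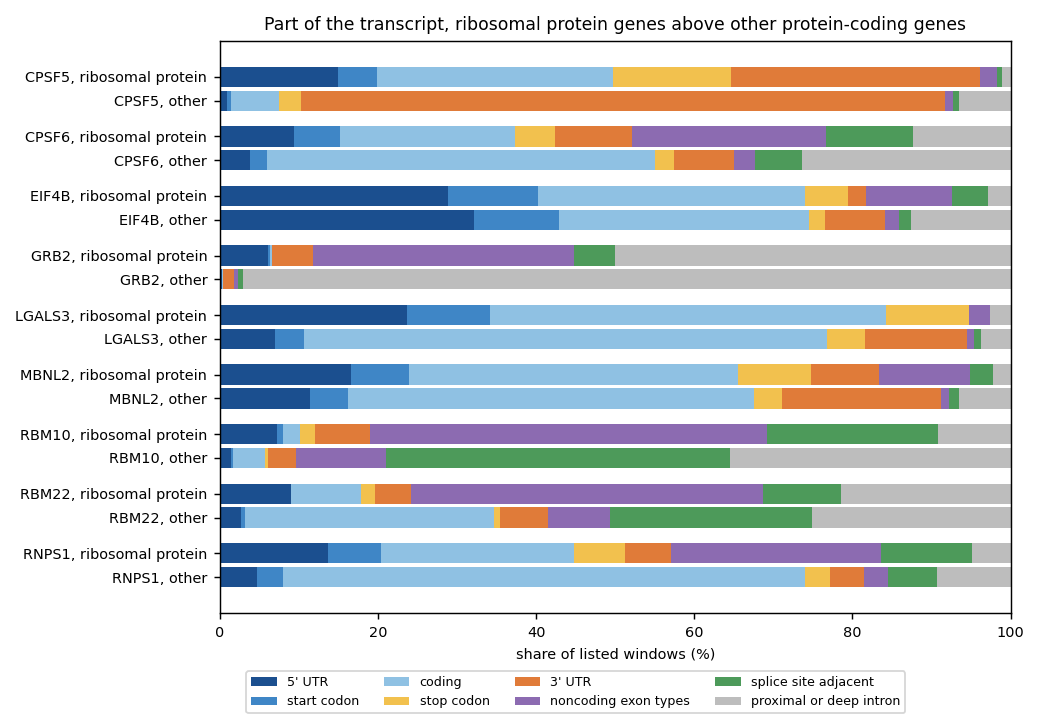
Share of listed windows by part of the transcript (horizontal axis, percent) for each protein, with ribosomal protein genes in the upper bar and other protein-coding genes in the lower bar of each pair. The CPSF5 bar shows 31.5% 3' UTR in ribosomal protein genes and 81.4% in other genes, the GRB2 bar 33.3% and 93.6% deep intron (drawn with proximal intron in grey), and the RBM10 bar 50.1% and 11.5% noncoding exon types.

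Most EIF4B reads in ribosomal protein genes lay at the 5' end. Of the 551 windows, 159 (28.9%, exact 95% interval 25.1 to 32.8) were in 5' UTRs and 63 (11.4%) covered a start codon, against 32.1% and 10.8% of the windows of other genes. Coding sequence held 186 windows (33.8%), against 31.6% in other genes. The 5' UTR windows held 61.7% of the members' EIF4B reads, against 56.5% in other genes. All such intervals cover counting error only. In 5' UTRs, 73 members had a window (background 86.8%), and over start codons 52 had a window (background 66.9%). The median log2 enrichment was 4.05 in members and 3.69 in other genes in 5' UTRs, and 4.11 in members and 3.28 in other genes at start codons. In coding sequence the order was the other way, with 2.23 in members and 2.39 in other genes. In every list, members had more input reads per window than other genes. In the EIF4B list the medians were 14 input reads in members and 5 in other genes.

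Stalk genes held the 3 member windows with the most EIF4B reads. RPLP1, one of the acidic proteins of the stalk that recruits translation factors, had 15508 IP reads and 230 input reads in a 67-nt 5' UTR window (chr15:69452814-69452880, hg38, plus strand). Its log2 enrichments were 5.19 and 5.38, the lower replicate given before the higher here and in all pairs below. The next window of RPLP1 (chr15:69452881-69452948) had 6434 IP and 151 input reads at 4.47 and 4.75. RPLP2, its dimer partner, had 9425 IP and 218 input reads in a 5' UTR window (chr11:809967-810039, plus strand) at 4.59 and 4.80. RPLP0, which anchors the stalk to the ribosome, had the most EIF4B windows of any member, 15, of which 3 were in 5' UTRs and 7 in coding sequence. The 3 stalk genes together held 46334 of the 217207 EIF4B reads in members. The large subunit genes RPL8, RPL13 and RPL36 and the small subunit gene RPS15 followed with 14 windows each, and 6 of those of RPL36 were in deep intron. RPL8 had the most EIF4B reads of these 4, 14949 in IP.

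The start regions printed above can be set beside these values. In RPS3A the 5' UTR window (chr4:151099624-151099652) centred 10 nt after the start had 374 IP reads and 1 input read at 6.44 and 8.23. RPL12 had 1591 IP and 15 input reads at 5.82 and 6.03, RPL24 had 963 IP and 30 input reads at 5.76 and 6.13, and RPL31 had 1711 IP and 53 input reads at 5.51 and 5.54. RPS4X, whose start does not meet the definition, had 2138 IP and 73 input reads at 5.26 and 5.51, and RPS26 had 24 IP reads and none in input at 5.35 and 5.58. Over the matched members, the best 5' UTR window had a median log2 enrichment of 4.47 in the 38 genes that meet the definition and have such a window, and 4.61 in the 23 that do not meet it. The ranges overlapped, from 2.69 to 6.44 where the definition is met and from 3.39 to 5.50 where it is not. Genes that do not meet it can still have a run of C and T nearby. The longest run that touched the 10 bases on either side of the start was measured too. Its median was 12 bases in the 40 members that meet the definition and 6 in the 23 that do not. Among the latter it was 16 in RPL17 and 14 in RPL10. The best 5' UTR window was not always near the annotated start. That of RPS14 was 2 nt long and centred 2004.5 nt after it, and that of RPL29 was centred 429.5 nt after it. The matched paralogs are counted among these genes. RPL22L1, which meets the definition, reached 5.70 with 279 IP reads and 1 input read. RPL26L1, RPL7L1 and RPS27L, which do not meet it, reached 5.30, 4.22 and 4.05. The windows of RPL26L1 and RPL7L1 were centred 192 and 146.5 nt after the annotated start.

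**Figure D3:**
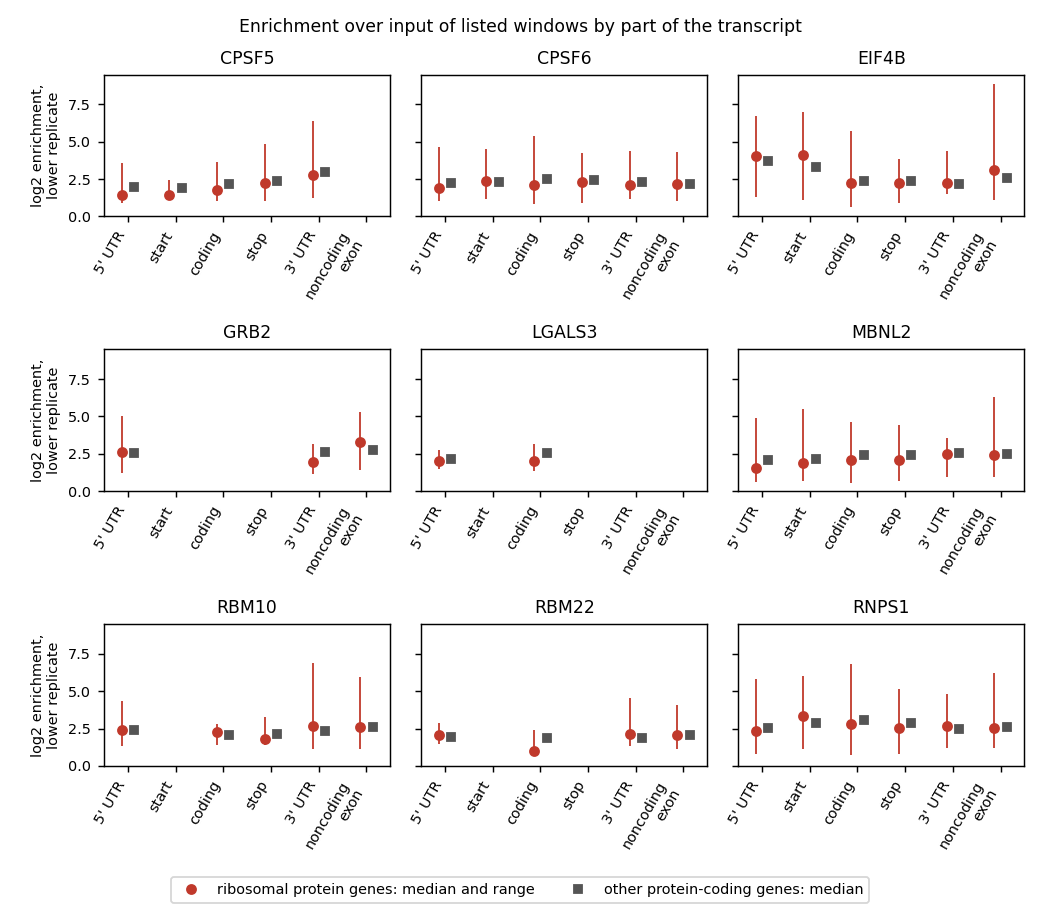
Log2 enrichment over input in the lower replicate (vertical axis) by part of the transcript for each protein, with the median and range of ribosomal protein genes in red and the median of other protein-coding genes in grey, shown where members had at least 5 windows. EIF4B medians in members are 4.05 in 5' UTRs and 4.11 at start codons, against 2.23 in coding sequence.

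Very short windows held several of the highest enrichments of members. Among member windows, 110 (45 distinct windows in 34 genes) were at most 10 nt long, and 50 of the 110 covered a start codon. In the EIF4B list they made up 6.17% of member windows and 0.216% of the windows of other genes. The highest EIF4B value of any member was in a 5-nt window 3 nt upstream of the start of RPL30, a large subunit protein that binds kink-turn RNA, with 197 IP reads, none in input, and 8.83 and 10.27. A 2-nt window 1.5 nt upstream of the start of RPLP2 had 283 IP and 5 input reads at 8.04 and 9.41. RPS12, a small subunit protein, had an 18-nt window next to a 3' splice site with 112 IP reads and 1 input read at 7.61 and 9.14. The enrichment of such windows departed from the plain read ratio. In the EIF4B list the authors' mean value exceeded the log2 ratio of IP to input reads (0.5 added to each) by a median of 1.41 in the 34 short windows and by 0.43 in the other 517. The excess was 2.46 in member windows with a GC content under 30% and -0.74 in those with 70% or more.

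MBNL2 and RNPS1 also had windows at the 5' ends of member transcripts. Within 100 nt upstream and 200 nt downstream of the RefSeq start, windows were centred in 71 members for EIF4B, 59 for RNPS1, 45 for MBNL2, 38 for CPSF6 and 25 for CPSF5. The count was 19 for RBM22, 17 for RBM10, 9 for GRB2 and 8 for LGALS3. The same count was not made for other genes, so whether members differ from them near the start is not known. These windows held 58.2% of the members' IP reads for EIF4B, 28.3% for MBNL2 and 19.1% for RNPS1. Their median log2 enrichment was 4.07 for EIF4B, 2.60 for RNPS1 and 1.67 for MBNL2. The start is that of 1 RefSeq gene entry, and 10 EIF4B windows lay outside the RefSeq gene altogether.

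**Figure D4:**
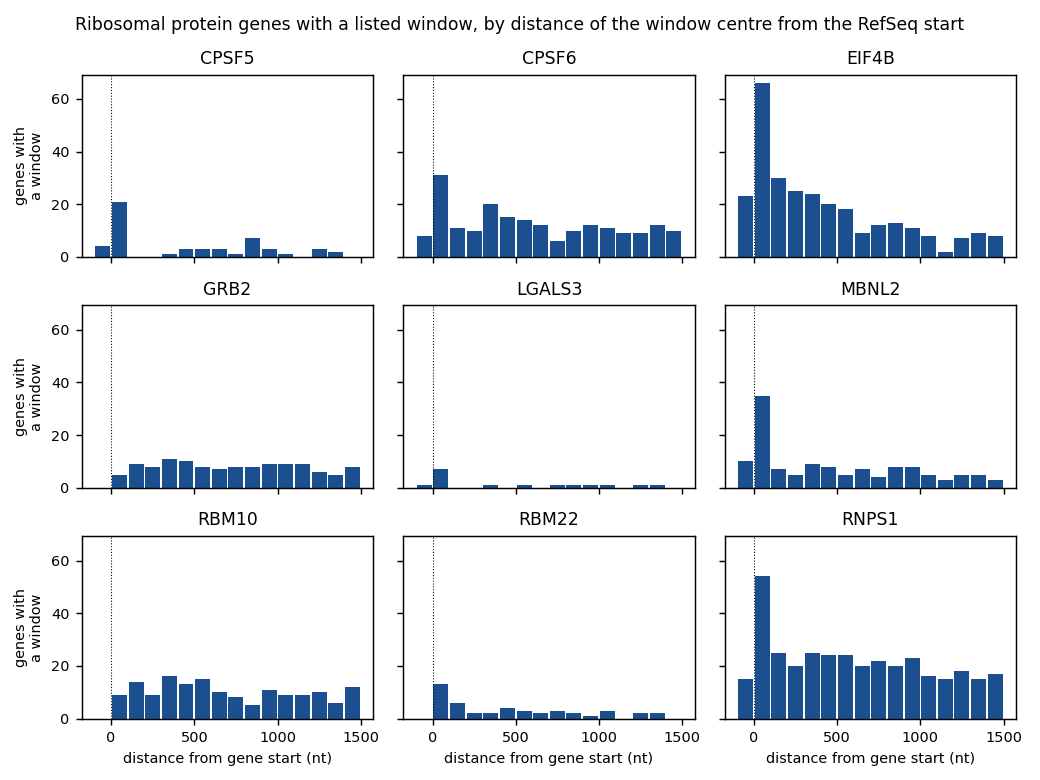
Number of ribosomal protein genes with a listed window (vertical axis) by distance of the window centre from the RefSeq gene start in bins of 100 nt (horizontal axis), for each protein. In the first 100 nt after the start, 66 genes had an EIF4B window, 54 an RNPS1 window and 35 an MBNL2 window, and the RBM10 and GRB2 counts show no peak there. The counts are of members only, with no background over other genes.

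RNPS1 had the most member windows of any list, 900. Of these 24.4% were in coding sequence, against 66.1% in other genes, while 13.7% were in 5' UTRs, against 4.74%. The 5' UTR windows lay in 62 members (background 40.2%) and the coding windows in 69 (background 84.9%). Noncoding exons of mRNA genes held 22.2% of member windows, against 2.43% in other genes, and were listed in 54 members (background 11.2%). By reads the coding share was larger, at 50.2% of IP reads in members and 69.5% in other genes. RPL3, a large subunit protein at the peptidyl transferase centre, had 38 RNPS1 windows, RPL35, near the exit of the peptide tunnel, had 26, and RPS15, a small subunit protein, and RPL13 had 24 each. The highest enrichment was in a coding exon of RPL23A, a large subunit protein at the tunnel exit (chr17:28720705-28720797, plus strand), with 4547 IP and 40 input reads at 6.83 and 7.58. RPS6, the small subunit protein that S6 kinases phosphorylate, followed with 263 IP and 6 input reads next to a 3' splice site at 6.69 and 7.25. RPL4 reached 6.25 and 7.08 in a noncoding exon with 70 IP reads and 1 input read.

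Coding sequence and noncoding exons held the largest shares of the CPSF6 windows of members. Coding sequence held 139 of 626 member windows (22.2%), against 49.1% in other genes, and noncoding exons of mRNA genes 20.6%, against 1.97%. Those noncoding exons lay in 50 members (background 10.2%) and the coding windows in 60 (background 76.7%). By IP reads the coding share was 48.9% in members and 59.1% in other genes. The RPL23A coding window was again the highest, with 3873 IP and 116 input reads at 5.37 and 5.39. RPL6 reached 5.11 with 49 IP reads and 1 input read, and RPL4 reached 4.96 with 100 IP and 7 input reads, both next to a 3' splice site. RPL31, a large subunit protein near the tunnel exit, held 80 of the 626 windows, and 58 of them were in deep intron. Deep intron windows of CPSF6 were found in 2 members only, and without RPL31 there would be 2 such windows in place of 60. RPL3 had 25 CPSF6 windows, and RPL4, RPL7L1 and RPS15 had 16 each.

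MBNL2 was listed in the coding sequence of 52 members (background 48.9%) and in the 5' UTR of 43 (background 31.5%). Coding sequence held 41.5% of its 313 member windows, against 51.4% in other genes, and 3' UTRs held 8.63%, against 20.1%. The median log2 enrichment in 5' UTRs was 1.55 in members and 2.09 in other genes, so that the 5' UTR windows of MBNL2 were frequent in members and low in enrichment. Members had a median of 26 input reads per MBNL2 window, against 5 in other genes. The highest values were in the same short windows upstream of the start as for EIF4B. RPLP2 had 78 IP and 4 input reads at 6.82 and 9.28, and RPL30 had 38 IP and 5 input reads at 6.31 and 8.52. RPL10A, a large subunit protein, had 34 IP and 4 input reads in a 5-nt start codon window at 5.49 and 5.72. In the 15 short windows the authors' value exceeded the log2 read ratio by a median of 2.99. RPL13 had 15 MBNL2 windows, RPLP0 had 13 and RPL15 had 12.

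CPSF5, whose list is mostly 3' UTR in other genes, was spread over the whole mRNA in members. Of its 181 member windows, 57 (31.5%, exact 95% interval 24.8 to 38.8) were in 3' UTRs, against 81.4% in other genes. Coding sequence held 29.8%, against 6.12%, stop codons 14.9%, against 2.77%, and 5' UTRs 14.9%, against 0.88%. A 3' UTR window was listed in 33 members (background 61.0%) and a coding window in 35 (background 12%). The enrichments of the coding and 5' UTR windows were low, with medians of 1.76 and 1.46, against 2.15 and 1.96 in other genes. In 3' UTRs the median was 2.75 in members and 2.98 in other genes. The highest value was in the 3' UTR of RPL5 (chr1:92841866-92841924, plus strand), centred 29 nt before the RefSeq end of the gene, with 168 IP reads and 1 input read at 6.37 and 6.82. RPS29, a small zinc-binding protein of the small subunit, reached 4.83 with 26 IP reads and none in input over a stop codon. RPL28, a large subunit protein, reached 4.75 with 18 IP reads and none in input in a 3' UTR. RPL15 had 12 CPSF5 windows, of which 4 were coding and 4 in the 3' UTR, RPS13 had 8, and RPS29 and RPL7L1, a paralog that works in ribosome assembly, had 6 each. Members had a median of 12 input reads per CPSF5 window, against 4 in other genes.

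RBM10 windows in members lay mostly in noncoding exons that were intronic in another transcript. Noncoding exons of mRNA genes held 177 of 415 member windows (42.7%), against 9.84% in other genes, and were listed in 45 members (background 9.31%). Windows next to a 3' splice site held 15.9% (exact 95% interval 12.5 to 19.8), against 33.2%, and were listed in 41 members (background 37.2%). When any annotated type was counted, the order was the other way, with 59.8% of member windows next to a 3' splice site and 45.0% of those of other genes. RPL3 had 30 RBM10 windows, 18 of them in noncoding exons, RPL18 had 18 and RPL10, a protein that joins the large subunit late in assembly, had 15. The highest enrichment was in a 3' UTR window of RPL18 (chr19:48615533-48615617, minus strand), with 186 IP reads and none in input at 6.87 and 6.92. RPL13A reached 5.98 in a noncoding exon with 204 IP reads and 1 input read. RPL32, a large subunit protein, reached 5.96 next to a 3' splice site with 196 IP and 2 input reads.

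RBM22, a protein of the catalytic core of the spliceosome, also had a different order by first and by any annotated type. Windows next to a 5' splice site made up 8.04% of its 112 member windows, against 22.0% in other genes, and were listed in 8 members (background 12.5%). By any annotated type the shares were 56.2% in members and 31.5% in other genes. Noncoding exons of mRNA genes held 34.8% of member windows, against 6.74%, and were listed in 27 members (background 3.33%). RPL31 had 19 RBM22 windows, 15 of them in deep intron, RPL3 had 9 and RPL10 had 7. Enrichments were low. RPS21, a small subunit protein, reached 4.53 in a 3' UTR window with 31 IP reads and none in input, RPL3 reached 4.07 with 76 IP and 2 input reads, and RPS24 reached 3.51 with 23 IP and 3 input reads, the last 2 in noncoding exons. The highest q-value of the RPS21 window was 0.0705. In coding sequence the median was 0.99 in members and 1.85 in other genes.

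**Figure D5:**
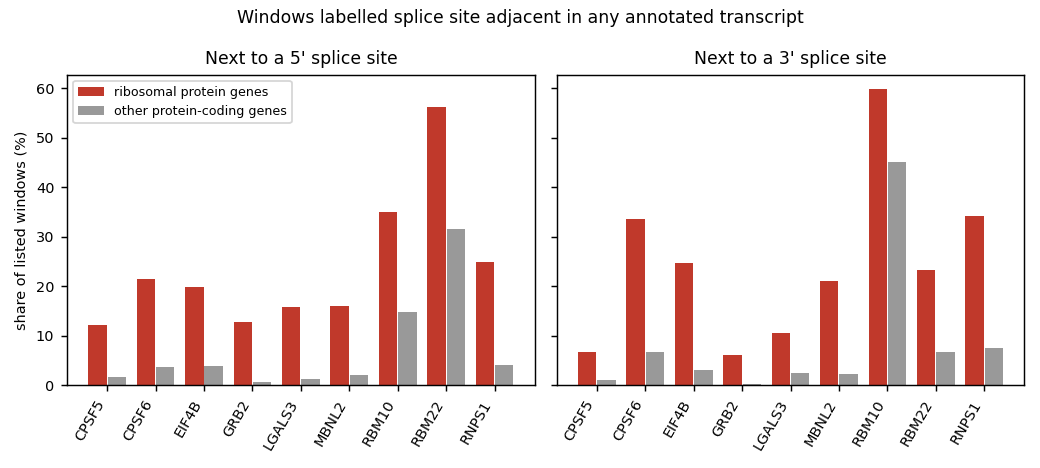
Share of listed windows (vertical axis, percent) that any annotated transcript places next to a 5' splice site (left) or a 3' splice site (right), for ribosomal protein genes (red) and other protein-coding genes (grey) in each list. The share is higher in ribosomal protein genes in all 9 lists at both sites, with 59.8% and 45.0% for RBM10 at 3' splice sites and 56.2% and 31.5% for RBM22 at 5' splice sites.

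GRB2 windows of members were concentrated in few genes. The 15 members with at least 10 GRB2 windows held 341 of the 366 windows (93.2%), 12 held the other 25, and 52 had none. The span of the gene in RefSeq had a median of 6978 nt in the 15 genes, 4250 nt in the 12 and 4486 nt in the 52. It was 65507 nt in the 4767 other genes with a GRB2 window that could be matched. Whether gene length accounts for the low count of members in this list was not tested. Deep intron held 33.3% of member windows, against 93.6% in other genes, and was listed in 12 members (background 46.6%). Noncoding exons of mRNA genes held 22.7%, against 0.31%, in 13 members (background 1.6%). The annotation marks every kind of intron window with a general intron type, and by any annotated type 98.6% of member windows and 98.6% of the others carried it. RPS9, a small subunit protein, had 41 windows, RPL32 had 37 and RPS15A had 33. The 3 highest values were in adjoining or nearby intron windows of RPS15A, a small subunit protein, between chr16:18787381 and chr16:18787762 on the minus strand. They had 190, 266 and 197 IP reads and 1, 2 and 2 input reads, at 5.88, 5.51 and 5.42 in the lower replicate and 7.20, 7.99 and 6.15 in the higher.

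LGALS3 had few windows, and members were frequent among them. The 38 member windows made up 3.79% of the 1002 windows of the list, the highest share of any list, but 1.17% of its IP reads. The members' share ranged from 0.126% (GRB2) to 1.45% (RBM10) of the windows of the other lists. Coding sequence held 19 of the 38 windows (50%, exact 95% interval 33.4 to 66.6), against 66.1% in other genes, and lay in 16 members (background 1.94%). In 5' UTRs it was 23.7%, against 6.90%. By IP reads the coding share was 48.5% in members and 45.8% in other genes, and the 5' UTR share 30.4% and 28.8%. The median log2 enrichment was 1.99 in members and 2.47 in other genes, with a median of 13.5 input reads per window in members and 5 in other genes. The RPL23A coding window was the highest, with 268 IP and 37 input reads at 3.13 and 3.62. RPS23, a protein of the decoding centre, reached 3.05 with 23 IP and 3 input reads, and RPS29 reached 2.73 in a 5' UTR with 73 IP and 11 input reads. RPL29 and RPL39, both large subunit proteins, had 3 windows each, and RPL23A had the most IP reads of the 8 members with 2. Only 5 members kept a window when the highest q-value had to be at most 0.05. The background at that limit was not counted, so whether members lost more than genes in general is not known.

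Windows of members recurred across lists. Of the 1762 distinct member windows, 49.8% were in 1 list only, against 78.0% of the distinct windows of other genes. A further 16.5% were in 3 lists and 9.65% in 4, against 4.82% and 1.37%. Members also had more reads per window, in IP and in input, and whether that accounts for the recurrence was not tested. RNPS1 shared 464 member windows with CPSF6 (51.6% of the RNPS1 and 74.1% of the CPSF6 windows) and 404 with EIF4B (44.9% of the RNPS1 and 73.3% of the EIF4B windows). It shared 252 with MBNL2, which were 28.0% of the RNPS1 and 80.5% of the MBNL2 windows. CPSF5 and CPSF6, subunits of 1 complex, shared 54, which were 29.8% of the CPSF5 and 8.63% of the CPSF6 windows. GRB2 shared none with MBNL2 or LGALS3. The overlaps between pairs of lists were not counted for other genes, so whether members differ from them in this is not known.

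The windows listed for 7 proteins, the most of any member window, included the RPL23A coding window and a stop codon window of RPL27A. The RPL23A window, absent from the CPSF5 and GRB2 lists, had 10935 IP reads over its 7 lists and ranged in log2 enrichment from 2.43 (RBM22) to 6.83 (RNPS1). It lay 89 nt from SNORD42B, a small nucleolar RNA that RPL23A hosts. The RPL27A window, in a large subunit gene, lay between 1.25 (CPSF5) and 3.74 (MBNL2), with 31 to 114 IP reads a list. The 5' UTR windows of RPS20 (chr8:56074447-56074509, minus strand) and RPL23A (chr17:28719985-28720005, plus strand) were listed for 6 proteins. EIF4B enrichment was the highest of the 6 for RPS20, at 6.39, and RNPS1 enrichment the highest for RPL23A, at 5.43. These ranges and orders set values of different lists side by side and do not measure differences in binding between proteins. Small RNA genes overlapped 48 of the 3502 member windows (1.37%), in 11 members. This overlap was not counted for other genes.

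The 42 large subunit genes held from 49.2% (CPSF5) to 67.9% (RBM22) of the members' windows, against 53.2% of the members, and the 29 small subunit genes held from 26.8% (RBM22) to 45.9% (GRB2), against 36.7%. The 3 stalk genes, 3.80% of the members, held up to 7.35% (MBNL2) and had no GRB2 or LGALS3 window. In EIF4B 5' UTR windows the median log2 enrichment was 3.87 in large subunit, 3.98 in small subunit and 4.47 in stalk genes. The 5 paralogs (RPL7L1, RPL22L1, RPL26L1, RPL39L and RPS27L) all had EIF4B windows, with a median log2 enrichment of 4.08 in 5' UTRs, and none was listed for GRB2, LGALS3 or RBM22. The 27 members known as hosts of intronic small nucleolar RNAs, 34.2% of the members, held 51.8% of the RBM22, 50% of the LGALS3, 46.7% of the RBM10 and 46.4% of the GRB2 windows, and 28.2% of the CPSF5 windows. The 5 genes reported to control their own splicing (RPL3, RPL12, RPS13, RPS16 and RPS26) held 13.4% of the RBM22 and 12.1% of the RBM10 windows, against 6.33% of the members, and RPL3 alone held 9 of the 15 RBM22 and 30 of the 50 RBM10 windows.

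The same counts were made for other genes of translation. Of 78 mitochondrial ribosomal protein genes, 78 were listed for EIF4B, 77 for RNPS1, 73 for CPSF6, 58 for MBNL2, 51 for CPSF5, 32 for RBM10, 22 for GRB2, 8 for RBM22 and none for LGALS3. Of 19 other TOP mRNAs, which encode elongation factors, PABPC1 and similar abundant proteins, all were listed for CPSF6, EIF4B, MBNL2 and RNPS1, 16 for CPSF5 and for RBM10, 12 for GRB2 and for RBM22, and 4 for LGALS3. In the CPSF5 list 3' UTRs held 31.5% of the windows of the cytosolic members, against 72.1% in the mitochondrial group and 53.1% in the other TOP mRNAs. Noncoding exons of mRNA genes held 22.2% of the RNPS1 windows of the cytosolic members, against 2.998% in the mitochondrial group and 9.75% in the other TOP mRNAs. Those exons also held more of the RBM10 windows in members (42.7%) than in the mitochondrial group (17.0%) or the other TOP mRNAs (21%). In some other comparisons members did not stand apart from both groups. For GRB2 those exons held 22.7% in members, 0.33% in the mitochondrial group and 19.6% in the other TOP mRNAs. For MBNL2 the 5' UTR share was 16.6%, 15.9% and 21.8%, in the same order. The median log2 enrichment of EIF4B in 5' UTRs was 4.05, 4.05 and 2.88.

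Median enrichment over all parts of the transcript was lower in members than in other genes in 8 of the 9 lists. For CPSF5 it was 2.07 in members and 2.83 in other genes, for CPSF6 2.15 and 2.51, for GRB2 2.81 and 3.38, and for MBNL2 2.07 and 2.40. For LGALS3 it was 1.99 in members and 2.47 in other genes. For RBM10 it was 2.55 in members and 2.79 in other genes, for RBM22 1.92 and 2.13, and for RNPS1 2.60 and 2.93. EIF4B was the exception, with 3.01 in members and 2.83 in other genes. Members also had more input reads per window in every list, and their mix of transcript parts differed in most lists. Whether either accounts for these differences in the median was not tested. The difference between the higher and the lower replicate of a window had a median between 0.41 (LGALS3) and 0.87 (RBM10) in members. No test over libraries was made, because the tables give the lower and the higher replicate's enrichment without naming the replicate, and no read count per library.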

How the data were processed

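The authors deposited 9 tables, 1 per protein, of windows enriched in both replicates. Read counts were deposited by the authors as whole numbers summed over 2 IP or 2 input libraries. The log2 enrichment of IP over input (a log2 odds ratio, per the file headers) was deposited for the lower replicate, the higher replicate and their mean. The p-values and q-values were deposited by the authors as the lowest and highest over the replicates, and the GC fraction per window as well. The build is hg38, per the submitters' processing notes. The aligner, window caller, annotation version and model behind the log2 enrichment are not given in the sources. Coordinates are 1-based.

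Windows were counted by gene, protein and the first annotated type in pandas 2.3.3 and numpy 2.4.6 under Python 3.11.15. Intervals used scipy 1.17.1 and figures matplotlib 3.10.9. Counting code was tested on simulated tables. Intervals are exact (Clopper-Pearson) at 95%. The other genes are protein-coding genes under a single name, without RPSA, which the name rule leaves out together with 8 joined names. Starts, spans and printed bases come from RefSeq tables for GRCh38.p14, which shares its coordinates with hg38, and no genome sequence was used. Genes named per protein were the 3 members with most windows (ties by more IP reads, then by name, with the tied members or their number given too) and those with the 3 highest lower-replicate values. Across proteins they were the members in most and fewest lists and the windows in most lists. Windows with most EIF4B reads in stalk genes, and members with at least 10 GRB2 windows, were chosen after their values were seen. The members, lists and comparison groups were chosen with earlier results of these data known. The shares by any annotated type and the count with RPSA and joined names were added after seeing the data. Distances in the first bins, short windows and read ratios were likewise added then. Some items are not reported here.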

Additional observations from a re-analysis of the deposited data

How the results depend on the processing

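No paired analysis was possible because the tables give the lower and the higher replicate's enrichment without naming the replicate, and no read count per library, and for the same reason neither leaving out a replicate nor the replicate block was run. The number of members listed stayed within 1.5 times of its value without the paralogs, with further ribosomal protein genes that the name rule leaves out, and with RPSA and joined names, in all 9 lists. With the highest q-value at most 0.05 it fell to 5 for LGALS3 (26 without that limit) and 25 for RBM22 (46). How many of all genes kept a window at that limit was not counted. That limit also moved the class shares to 29.8% coding for CPSF6, 33.0% 5' UTR for EIF4B, 33.3% coding for LGALS3, 24.3% next to 3' splice sites for RBM10 and 30.6% coding for RNPS1, and the median log2 enrichment to 2.60 for CPSF5, 2.59 for LGALS3 and 3.25 for RBM10. As a share of IP reads the class was 24.0% (CPSF5, 3' UTR), 48.9% (CPSF6, coding), 61.7% (EIF4B, 5' UTR), 53.4% (MBNL2, coding) and 50.2% (RNPS1, coding). By any annotated type it was 48.6% for CPSF5, 32.9% for CPSF6, 34.8% for EIF4B, 98.6% for GRB2 (any intron type), 71.1% for LGALS3, 58.1% for MBNL2, 59.8% for RBM10, 56.2% for RBM22 and 37.6% for RNPS1. Joining adjoining windows gave 24.7% for EIF4B, 23.1% for GRB2 and 20.2% for RBM10, and the mean over genes gave 19.5% for GRB2. The higher-replicate median was 2.94 for CPSF5, 2.95 for CPSF6, 3.80 for EIF4B, 3.88 for GRB2, 2.49 for LGALS3, 2.74 for MBNL2, 3.68 for RBM10, 2.81 for RBM22 and 3.45 for RNPS1. At least 20 IP reads per window moved no median by more than the spread between replicates. The members' share by IP reads, in place of windows, was 1.03% (CPSF6), 2.31% (EIF4B), 0.227% (GRB2), 1.17% (LGALS3), 1.85% (MBNL2), 1.93% (RBM10) and 1.82% (RNPS1). Without hosts of small nucleolar RNAs the members' share of windows was 0.335% for CPSF5, 0.258% for CPSF6, 0.546% for EIF4B and 0.0673% for GRB2. This share of windows was 1.90% for LGALS3, 0.461% for MBNL2, 0.774% for RBM10, 0.623% for RBM22 and 0.351% for RNPS1. The cause of these moves was not tested, beyond the smaller number of genes or windows that each setting leaves. Library depth is unknown, so lack of enrichment and lack of coverage cannot be told apart for a gene that a list does not hold.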

Other observations

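The name rule left out RPSA, the small subunit protein also known as the laminin receptor, and windows whose name joins a ribosomal protein gene to an overlapping gene. These were 9 names with 200 windows, of which 155 carried a joined name. RPSA had 45 windows in 7 lists, of which RNPS1 had 11, CPSF6 10, MBNL2 and RBM10 7 each and EIF4B 6. CPSF5 and GRB2 had none. RPS15A had no EIF4B window under its own name, but 6 EIF4B windows carried its name joined to an overlapping gene, and the joined name was found in all 9 lists. The joined names of RPL36A (36 windows), RPL17 (33) and RPS10 (30) were each found in 7 lists.

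Among the 100 protein-coding windows with the highest EIF4B value of the lower replicate, 6 were in members, and 4 of these 6 were at most 10 nt long. Members held 2 of the first 100 windows for MBNL2, 2 for RNPS1 and 1 for RBM10, and none for CPSF5, CPSF6, GRB2, LGALS3 or RBM22. Of all listed windows, of every gene type, members held 0.802% for EIF4B, 0.729% for MBNL2, 0.589% for RNPS1 and 1.45% for RBM10. In the lists with none, that share ran from 0.126% (GRB2) to 3.79% (LGALS3). The authors' value minus the log2 read ratio followed the GC content of member windows for RNPS1 too, with a median of 1.55 under 30% GC and -1.53 at 70% or more, whereas for GRB2 it was -0.20 and 0.03.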
